A study of Mus musculus with 199 samples.

Results

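The mouse olfactory receptor genes lie in gene clusters, and 5 stretches of them were examined here as 40 kb windows of the genome. Windows were taken by position alone, where their start fell inside 1 of 5 ranges of the mm9 assembly. These were a proximal, a middle and a distal range on chromosome 2 (chr2:36120001-37320000, chr2:85000001-90320000 and chr2:111000001-112200000), a range on chromosome 7 (chr7:109520001-115920000) and a range on chromosome 9 (chr9:37520001-40000000). Together they held 415 of the 65983 windows of chromosomes 1 to 19 and X, or 16.6 Mb, and 11045 windows made up the rest of chromosomes 2, 7 and 9. The annotation bore out the label: 653 of its 1251 genes named Olfr overlapped the ranges, 569 of them protein coding, and 318 of the 415 windows held at least 1.

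The data were calls from genome architecture mapping (GAM), in which thin sections through frozen nuclei are cut, the DNA of each slice (a nuclear profile) is sequenced, and loci that lie close together in space are expected to fall in the same slices more often. In the multiplex form used here, each of 186 libraries came from a cap labelled as holding 4 profiles (4NP) cut at 220 nm, and 11 water controls and 2 DNA controls were made beside them. All 199 libraries had failed the quality control of the authors, so every value below is conditional on that failure. The deposited value of a window in a library was 1 where the window was called present and 0 otherwise.

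All caps came from 46C mouse embryonic stem cells, a line derived from E14tg2a that carries a green fluorescent protein gene at Sox1, and no group had another genotype. The 186 libraries of 4NP caps came from 11 experiments. Those compared below by condition were a full collection stained with 1% cresyl violet (34 libraries, with 6 water controls and 2 controls of 5 ng human genomic DNA), propidium iodide at 10 µg/ml without and with freezing (21 and 21), 1% crystal violet and unstained caps (16 and 5), SYBR Gold and unstained caps by title (15 and 3), 0.5% eosin in 40% ethanol and in water (8 and 8), and proteinase K volumes titled 3, 4 and 8 µl (7 libraries each). The other 4NP caps, pooled with these where all 186 are used, came from tests of freezing early or late, freezing after incubation, kit size, reagent volumes (protocols titled a and c) and amplification over 20, 23 or 25 PCR cycles, from the proteinase K volumes titled 1 and 2 µl (7 of the 1 µl caps are titled csc, all other caps of that titration mdc, and neither is explained in the labels), and from unstained caps of the eosin and propidium iodide tests. The test with crystal violet is titled after cresyl violet, whereas the titles and the protocol of its stained caps name crystal violet, the name used here. In the SYBR Gold test the titles and the protocols disagree, since staining is described for the caps whose title says unstained and not for the rest. Groups follow the title. Nothing in the labels says that the caps of a group came from separate cultures, so p-values measure the spread between these libraries, which may be technical. How many nuclei a cap really held cannot be read from the calls.

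Olfactory receptors are G protein-coupled receptors of sensory neurons in the nose. Each mature neuron expresses a single allele of a single receptor gene, and the many silent genes are packed in constitutive and facultative heterochromatin, where clusters on different chromosomes are known to gather in the neuron nucleus. Embryonic stem cells do not use the receptors, so the clusters are silent, gene-dense but GC-poor and built from many similar copies. The chromosome 7 range holds the class I receptor genes, the family shared with fish, on both sides of the beta-globin genes, and further along it class II genes.

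The copies can be seen in the sequence itself, and the first 60 coding bases of 8 genes are shown. The windows never called are described below by their copies, and 4 chosen receptor genes found once are set beside them. Copies of the start were not counted for all receptor genes. All were read 5′ to 3′ on the strand of the gene from the mm9 reference, lie in coding exons, and have the start codon in capitals. The next 4 stretches lie in windows called in 0 of 186 libraries, though Gvin1 and Trim34b reach into a second window, called in 1 and 7 libraries.

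Olfr1506 (chr2:90062594-90062653, minus strand): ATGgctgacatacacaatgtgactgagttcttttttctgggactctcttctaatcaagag

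Gvin1 (chr7:113308715-113308774, minus strand): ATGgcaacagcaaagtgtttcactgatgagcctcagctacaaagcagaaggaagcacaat

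Trim5 (chr7:111428187-111428246, minus strand): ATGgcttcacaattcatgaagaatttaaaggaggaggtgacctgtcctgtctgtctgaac

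Trim34b (chr7:111478062-111478121, plus strand): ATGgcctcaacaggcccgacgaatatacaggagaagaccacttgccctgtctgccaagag

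The Olfr1506 stretch was found at 3 places in the genome, all inside the middle chromosome 2 cluster: in Olfr1506 itself, in Gm13769 (window chr2:90160001-90200000, 0 libraries) and in Olfr1274-ps (window chr2:90240001-90280000, 4 libraries). The Gvin1 stretch was also found at 3 places, all on chromosome 7 within the range. The Trim5 stretch was found at 2 places, the second in Trim12a (chr7:111455786-111455845). The Trim34b stretch was found once, and it differed from that of Trim34a (chr7:111396245-111396304) by T15C and T17C, with the Trim34a base first and positions counted from the A of the start codon.

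Set beside these are receptor genes whose first coding bases were found once in the genome, as those of Trim34b were.

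Olfr17 (chr7:114240963-114241022, plus strand, window in 2 libraries): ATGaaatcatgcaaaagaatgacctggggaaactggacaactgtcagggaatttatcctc

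Olfr151 (chr9:37538507-37538566, minus strand, window in 11 libraries): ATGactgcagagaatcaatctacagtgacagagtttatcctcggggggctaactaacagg

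Olfr1061 (chr2:86254148-86254207, minus strand, window in 16 libraries): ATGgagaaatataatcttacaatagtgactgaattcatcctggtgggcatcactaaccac

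Olfr543 (chr7:109626323-109626382, minus strand, window in 16 libraries): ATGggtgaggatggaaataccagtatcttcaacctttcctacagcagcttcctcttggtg

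Olfr17 (the P2 receptor) and Olfr151 (M71) are receptors much used to trace the wiring of the olfactory bulb. The start region of their counterpart Olfr160 (M72), taken from RefSeq (GRCm38.p6) and matched base for base to mm9, lay at chr9:37519816-37520115. Its transcript start fell 1 window outside the chromosome 9 range, in a window called in 11 libraries.

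The libraries differed widely in yield. A 4NP library had between 1 and 17665 called windows, with a median of 1631.5, and 113 of the 186 had at least 1% of windows called. Read depth is not given by calls, so a window that was not called may be absent from the cap or may have too few reads.

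Almost all cluster windows were seen in some library. At least 1 of the 186 4NP libraries called 405 of the 415 windows, or 97.6%, against 95.9% of all windows of chromosomes 1 to 19 and X and 94.4% of the rest of chromosomes 2, 7 and 9. The 10 windows called in none were 2.41% of the clusters, where 4.1% of all windows and 5.58% of the rest had no call. These shares rest on windows made of unknown bases alone, of which the clusters held 0, the rest 405 and the whole set 1916, none of them called. Without these windows the order turned: 98.02% of the rest and 98.8% of all windows were called at least once, and 1.98% of the rest never. A count of 0 of 186 libraries allows a call rate of up to 1.61%. The median cluster window was called in 8 libraries, the median window of the rest in 9, and the clusters ran from 0 to 18.

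The clusters differed in how evenly they were called. In the proximal chromosome 2 cluster (30 windows, 37 Olfr genes from Olfr334-ps1 to Olfr368) every window was called in 6 to 17 libraries, with a median of 11. The distal chromosome 2 cluster (30 windows, 44 genes from Olfr1275 to Olfr1318) and the chromosome 9 cluster (62 windows, 97 genes from Olfr151 to Olfr986) had medians of 9, with ranges of 4 to 14 and 3 to 14. The middle chromosome 2 cluster, the densest with 268 genes from Olfr987 to Olfr1274-ps in 133 windows, had a median of 7 and a range of 0 to 16. The chromosome 7 cluster also had a median of 7 and the widest range, 0 to 18, over 160 windows that held 207 Olfr genes from Olfr543 to Olfr513 and 63 other protein-coding genes. Windows with at most 2 libraries numbered 21, or 5.06% of the members beside 5.98% of all windows (3.17% without those of unknown bases alone): 4 in the middle chromosome 2 cluster, 17 on chromosome 7 and 0 in each of the others.

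**Figure D1:**
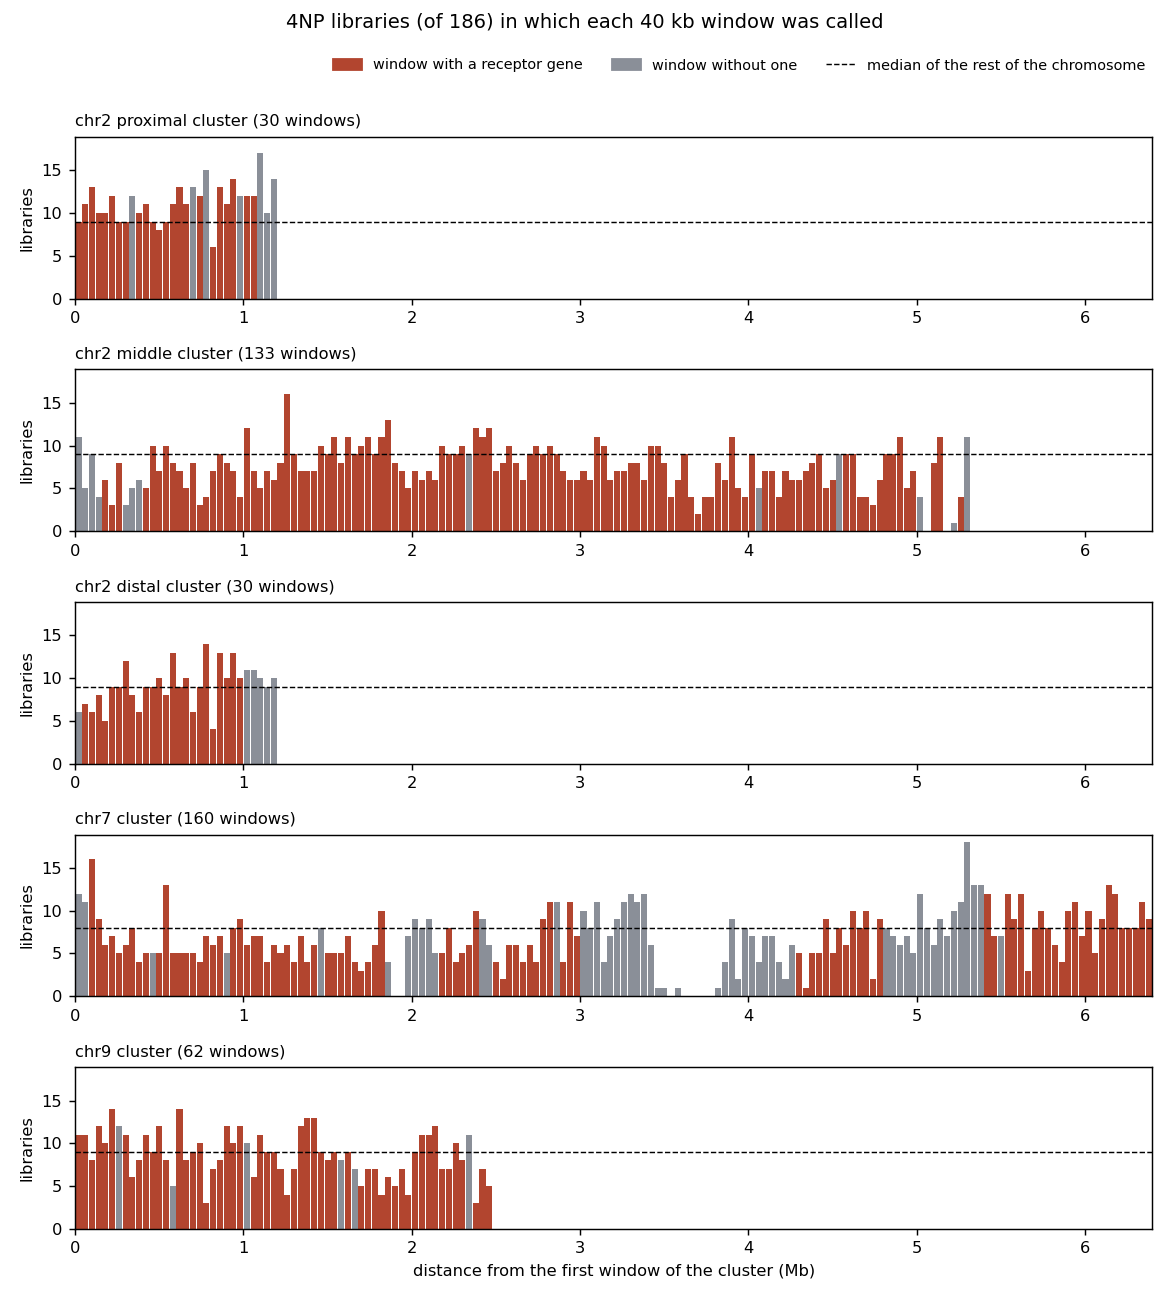
Libraries (of 186) in which each 40 kb window was called, along the 5 clusters, as bars against the distance from the first window of the cluster in Mb. Red bars are windows with a receptor gene, grey bars windows without one, and the dashed line is the median of the rest of the chromosome. The proximal chromosome 2 windows lie at 6 to 17 libraries, and the chromosome 7 and middle chromosome 2 clusters hold the windows at 0.

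Of the 10 windows that were the 2 most called of each cluster (ties taken by position), 7 held a receptor gene and 3 did not. Among all 415 cluster windows 318 held one, so this count does not set receptor windows apart. The window of Ppfibp2 (liprin beta 2, a scaffold protein) at chr7:114800001-114840000 was called in 18 libraries, the highest of all cluster windows, and that of Pdcl and Rc3h2 (a phosducin-like protein and an RNA-binding ubiquitin ligase) at chr2:37200001-37240000 in 17. At the edge of the chromosome 7 cluster, the window that holds Olfr543, Olfr544 and part of Rrm1 (the large subunit of ribonucleotide reductase) was called in 16. The most called window made of receptors alone was chr2:86240001-86280000, with Olfr1061, Olfr1062 and Olfr1063-ps1, also in 16. On chromosome 9 the highest count was 14, for the window of Olfr878 and for that of Olfr25 and Olfr898.

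At the low end, receptor windows with largely unique sequence were also found. On chromosome 9, the windows of Olfr905 to Olfr907 and of Olfr982 to Olfr984 were called in 3 libraries each, with 80.8% and 94.0% of their 50-base stretches found once in the genome. The Olfr17 window was called in 2 libraries, with 71.8% found once. In the distal chromosome 2 cluster the Olfr1308 and Olfr1309 window (4 libraries) lay next to that of Olfr1307 (14 libraries), so neighbouring windows could differ as much as the whole cluster did.

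Other gene families inside the chromosome 7 range were read from lists. The 5 protein-coding beta-globin genes, whose products carry oxygen in red blood cells, lay in 2 windows called in 8 and 5 libraries. The 13 Trim genes, several of which restrict viruses, lay in 12 windows called in 0 to 11 libraries with a median of 6.5. For comparison, the 189 protein-coding Olfr genes of the range lay in 94 windows with a median of 6 and a range of 1 to 16.

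The windows with 0 calls were mostly repeated sequence. Sequence was scored as the percent of 50-base stretches, 1 per 100 bases, that occur once in the mm9 genome, and it averaged 80.7% in the clusters and 88.9% in the rest of the 3 chromosomes. Below 20%, 8 of 15 cluster windows were never called, and 187 of 273 windows (68.5%) in the rest. From 40% upwards, 2 of 400 cluster windows (0.500%) and 17 of 10250 windows of the rest (0.166%) were never called. Those 2 cluster windows were neighbours, chr7:111400001-111440000 with Trim5 and parts of Trim34a and chr7:111440001-111480000 with Trim12a and Trim34b, in which 46.0% and 76.0% of stretches were found once. The reference genome is of the C57BL/6J strain, whereas 46C cells are of 129 origin, and the part of that difference in the 0 calls was not tested.

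The longest run of neighbouring chromosome 7 windows called in at most 1 library, chosen after its values were seen, lay between the receptor parts of chromosome 7. Over chr7:112960001-113360000, 10 windows with Gm4070, Gm8979 and Gvin1, the last an interferon-inducible very large GTPase, had 4 calls in all 186 libraries together. In these windows 0% to 44% of stretches were found once, and the window starting at 113120001 was 94.0% unknown bases. On chromosome 2, the windows of Olfr1506 (0.250% found once) and of Gm13767 and Gm13769 (0% found once) were called in no library, while the 2 windows between them, also chosen after their values were seen, with Olfr1271, Olfr142, Olfr1272 and Olfr1273-ps, were called in 8 and 11 libraries with 51.0% and 63.0% found once.

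**Figure D2:**
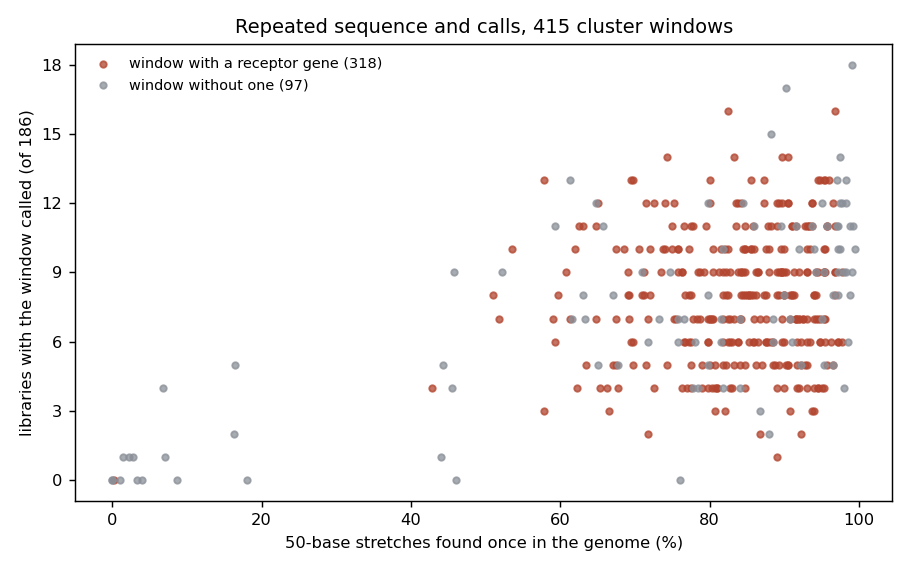
Each point is 1 of the 415 cluster windows, with the percent of its 50-base stretches found once in the mm9 genome on the x axis and the number of libraries (of 186) that called it on the y axis. Red points are the 318 windows with a receptor gene and grey points the 97 without. Windows below 20% lie at 0 to 5 libraries, and above 80% the counts spread from 1 to 18.

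Among windows with mostly unique sequence the cluster means were lower than those of the rest, as a description. Where 90% to 100% of stretches were found once, 140 cluster windows were called in a mean of 8.44 libraries and 7553 other windows in 9.79. Between 80% and 90% the means were 7.91 over 137 cluster windows and 8.90 over 1542 others. The clusters were also poorer in GC, 38.7% on average against 42.7%, and in every GC band below 44% the cluster mean was the lower one, for instance 7.63 and 8.15 libraries at 38% to 39%. At 44% and above, 19 cluster windows had a mean of 10.2 and the rest 10.1.

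Over all libraries, the clusters were called in 4.16% of window and library positions, where the rest of their chromosomes, weighted by the cluster windows on each, was called in 4.70%. The ratio was 0.885 ± 0.0604 (jackknife SE over 186 libraries), and 2 SE reached from 0.764 to 1.01. The clusters were called at a lower rate than the rest in 121 libraries, at a higher rate in 61 and at the same rate in 4. This did not pass the two-sided sign-flip permutation test over libraries (p = 0.0626, adjusted p = 0.202 over 6 tests). Without the windows of unknown bases alone the ratio was 0.852 ± 0.0582 and did not pass it either (adjusted p = 0.0842).

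Taken singly, the ratios ran from 0.797 to 1.22, with overlapping ranges of 2 SE, and which cluster was lowest changed with the setting: chromosome 7 at 0.739 without the 10% of libraries that had the most calls, and the distal chromosome 2 cluster at 0.787 without the proteinase K titration. The rates were 3.96% for the middle cluster (ratio 0.797 ± 0.107 to the rest of chromosome 2, adjusted p = 0.202), 4.91% for the distal cluster (0.989 ± 0.148, adjusted p = 0.940) and 6.06% for the proximal cluster (1.22 ± 0.173, adjusted p = 0.347), where the rest of chromosome 2 was called at 4.97%. As a mean of single-library ratios the middle cluster stood at 1.12 ± 0.368, on the other side of 1. On chromosome 7 the rate was 3.64%, and 4.23% in the rest (0.862 ± 0.114, adjusted p = 0.347). On chromosome 9 it was 4.67%, and 5.11% in the rest (0.913 ± 0.115, adjusted p = 0.547). None of the 6 ratios passed the test. The errors leave room for sizeable differences: for the middle cluster, 2 SE reached from 0.584 to 1.01.

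Set against the windows within 1 Mb on either side, the middle chromosome 2 cluster was called less often than its surroundings. The 50 flanking windows, with 45 protein-coding genes, were called at 6.29% (6.09% on the proximal side and 6.49% on the distal side), and the cluster at 3.96%. The ratio was 0.629 ± 0.0826, and the cluster was lower in 66 libraries and higher in 35 (two-sided sign-flip permutation p = 0.00059, adjusted p = 0.00295 over the 5 clusters). The rest of chromosome 2, flanks included, was called at 4.97%, so these flanks were themselves called above their chromosome. Against that rest the cluster stood at 0.797 ± 0.107 and did not pass the sign-flip permutation test (adjusted p = 0.202). The flanks also had more GC and more unique sequence, 43.9% and 93.7%, than the cluster at 37.4% and 81.2%. With both sides limited to windows of at least 80% unique stretches the ratio was 0.633 (adjusted p = 0.00385), and with flanks in the GC range of the clusters 0.625 (adjusted p = 0.0108).

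That difference was carried unequally by the experiments. Among the 43 libraries of the propidium iodide experiment the cluster was called at 5.54% and its flanks at 12% (ratio 0.462 ± 0.0807). The sign-flip permutation p was 0.00022, and 0.00198 when adjusted over the experiments. In the crystal violet test the rates were 0.0716% and 1.81% (sign-flip permutation p = 0.00739, adjusted p = 0.0333). That cluster rate is near the floor, as its only calls were 1 each in crystal violet replicates 12 and 15. In the proteinase K titration the order was the other way, 5.36% in the cluster and 4.71% in the flanks (ratio 1.14 ± 0.504, sign-flip permutation p = 0.759, adjusted p = 0.854). Without the propidium iodide experiment the ratio was 0.761 and did not pass the test (adjusted p = 0.349).

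The other 4 clusters did not differ from their flanks in the test. The ratios were 0.975 ± 0.121 for the proximal and 1.1 ± 0.126 for the distal chromosome 2 cluster, 0.830 ± 0.128 for chromosome 7 and 0.875 ± 0.118 for chromosome 9 (adjusted p = 0.523 to 0.837). For chromosome 7 the ratio was 0.673 with the 10% of libraries that had the most calls left out, and it then passed the test (adjusted p = 0.0340).

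**Figure D3:**
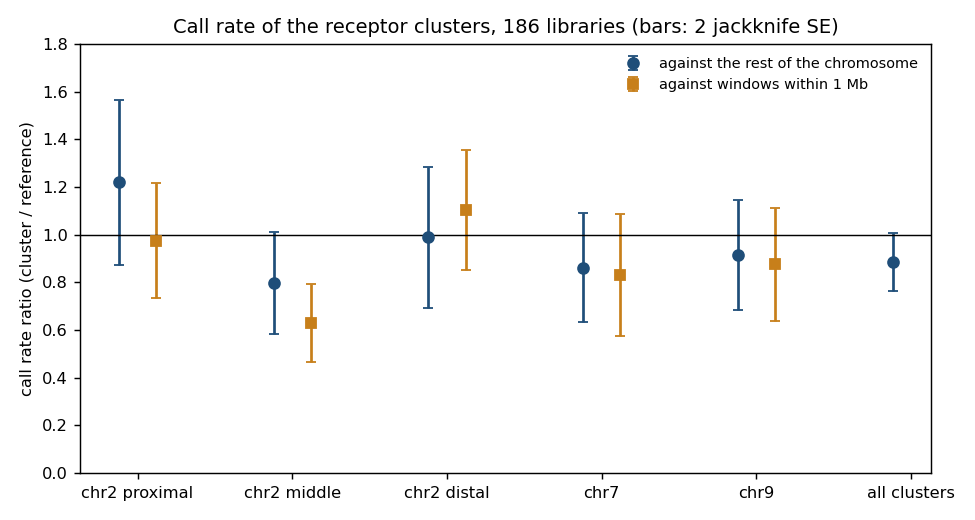
Call rate of each cluster divided by that of the rest of its chromosome (blue circles) or of the windows within 1 Mb (orange squares), over 186 libraries, with bars of 2 jackknife SE. The flank ratio of the middle chromosome 2 cluster, 0.629, is the point whose bar stays below 1 on both ends.

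Inside the ranges, windows with a receptor gene were called at 4.24% (318 windows) and those without at 3.91% (97 windows), a ratio of 1.08 ± 0.0929 (sign-flip permutation p = 0.346). The order turned with the sequence allowed: over windows with at least 80% unique stretches the ratio was 0.866 (p = 0.152), so no direction can be given. Receptor windows on the other autosomes, 306 on 14 chromosomes, were called at 1.02 ± 0.0483 times the rate of the other windows there (p = 0.663), and at 0.992 ± 0.0469 times without windows of unknown bases alone (p = 0.866).

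The receptor genes of chromosome 7 fell into 2 parts on either side of a gap of 1.30 Mb without a receptor, between Olfr692 and Olfr693. The proximal part, which holds the class I genes, had 145 Olfr genes in 59 windows and was called at 3.35%. The distal part, with 62 Olfr genes in 37 windows, was called at 4.29%. The ratio of 0.782 ± 0.136 did not pass the test (p = 0.172). The 32 windows of the gap itself were called at 2.77%, with 58.6% of their stretches found once, and they include both the window of Ilk (integrin-linked kinase) and Tpp1 (a lysosomal peptidase), called in 12 libraries and named here after its value was seen, and the Gvin1 stretch described above.

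No library called every window of a cluster. Any window of the 5 clusters was called in 135 of the 186 libraries, and the highest library, propidium iodide stained and frozen replicate 14, called 121 of the 415 windows (29.2%, Wilson 95% interval 25.0% to 33.7%, which covers counting error and treats windows as independent). At least 50% of the proximal chromosome 2 cluster was called in 5 libraries, of the distal one in 4, of the chromosome 9 cluster in 2, of the middle chromosome 2 cluster in 1 and of the chromosome 7 cluster in 0. For the middle cluster that library was the unfrozen replicate 1 of the test of freezing after incubation, with 71 of 133 windows (53.4%, where the rest of chromosome 2 stood at 21.5%). For the proximal cluster the highest was 24 of 30 windows (80%) in propidium iodide stained replicate 7, the library with 26.8% of all windows called. For each cluster, the 10 libraries with the most calls in that cluster gave from 41.8% (middle chromosome 2) to 54.01% (distal) of its calls. A large part of each rate above thus rests on few libraries.

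**Figure D4:**
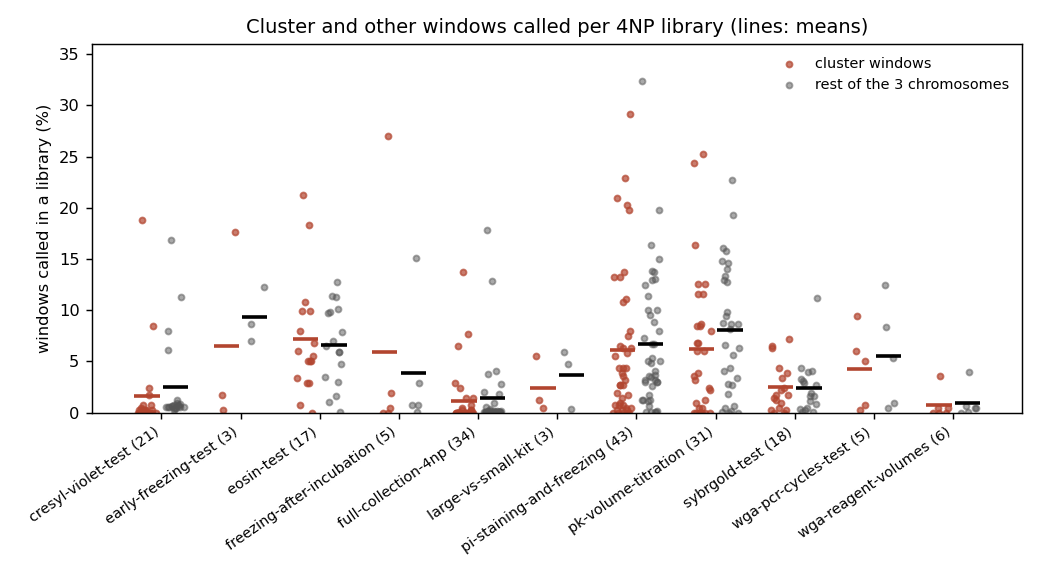
Percent of cluster windows (red) and of the other windows of chromosomes 2, 7 and 9 (grey) called in each of the 186 4NP libraries, by experiment as titled with the number of libraries in brackets. Lines are means. Red and grey points overlap in every experiment, and the highest red point is 29.2%.

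Within single experiments the ratio of the clusters to the rest lay on both sides of 1. It was 0.714 ± 0.307 in the crystal violet test (21 libraries), 0.764 ± 0.269 in the full collection (34), 0.795 ± 0.110 in the proteinase K titration (31), 0.913 ± 0.131 with propidium iodide (43), 1.05 ± 0.150 in the SYBR Gold test (18) and 1.08 ± 0.133 in the eosin test (17). In each of these the sign-flip permutation p was 0.0720 or higher. In the 3 tests of 5 or 6 libraries the ratios ran from 0.749 to 1.41 (exact sign-flip permutation test, lowest p = 0.0625, the smallest that 5 libraries can give).

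The handling of the caps was compared through the share of called windows of chromosomes 2, 7 and 9 that lay in the clusters, which does not scale with yield. Percent of cluster windows called ran from 0 to 22.9 with a median of 3.86 in propidium iodide caps, and from 0 to 29.2 with a median of 3.61 in those also frozen, so the groups overlapped. The cluster share was 2.79% of 19901 calls and 4.09% of 13021 calls (difference -1.30 percentage points, permutation p = 0.163, adjusted p = 0.435). Eosin caps ran from 0.723% to 18.3% in ethanol and from 2.89% to 21.2% in water. Their shares of 3.37% and 4.76% did not pass the exact permutation test (adjusted p = 0.435), and the difference of -1.38 points was -0.727 without replicate 7 in water.

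The same held for the proteinase K volumes and for crystal violet. Shares were 2.84% at 3 µl, 2.33% at 4 µl and 1.55% at 8 µl, with 7 libraries each, and the adjusted p was 0.704 in all 3 exact permutation tests. Single libraries moved these differences widely: that of 3 against 8 µl, 1.29 points, was 0.591 without 3 µl replicate 2 and 2.01 without 8 µl replicate 7. That of 4 against 8 µl, 0.778 points, was 0.0267 without 4 µl replicate 4 and 1.50 without 8 µl replicate 7. That of 3 against 4 µl, 0.511 points, was -0.187 without 3 µl replicate 2 and 1.26 without 4 µl replicate 4. With crystal violet the share was 1.8% of 1054 calls, and in the unstained caps 2.52% of 4929 (exact permutation p = 0.764). The sign of this difference, -0.713 points, turned to 0.264 without unstained replicate 2, and it was -1.25 without crystal violet replicate 9. In the full collection the 34 4NP caps had a share of 2.85% and the 6 water controls 1.90% (exact permutation p = 0.601). Water control replicate 4 alone gave 41 of the 42 cluster calls and 2116 of the 2214 calls of the controls, and without it the difference of 0.952 points was 1.83.

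One comparison passed the threshold, and the call was lost in 16 of the 18 fits that each left out 1 library, those without an unstained cap among them. In the SYBR Gold test, 176 of 4914 calls (3.58%) lay in the clusters in caps titled stained (n = 15) and 7 of 79 calls (8.86%) in caps titled unstained (n = 3), a difference of -5.28 points (exact permutation test, two-sided, p = 0.00613, and 0.0490 when adjusted over the 8 comparisons). The unstained caps had 2, 5 and 0 cluster calls. Without unstained replicate 2, whose 5 calls all lay on chromosome 7, the difference was -0.674 (adjusted p = 0.772), and without unstained replicate 1 it was -11.6 (adjusted p = 0.118). As a share of the calls on chromosomes 1 to 19 and X the difference was 0.214 in the other direction (adjusted p = 0.529).

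The background measured in controls was low in most of them. Over 9 of the 11 water controls, 2 of 3735 window positions in the clusters were called (0.0535%), and 0.177% in the rest of the chromosomes. Both human DNA controls had 0 of 415 cluster windows called, which allows a share of up to 0.723% when a count of 0 is read as at most 3. The 2 other water controls were not empty. Replicate 4 of the full collection called 41 cluster windows (9.88%, Wilson 95% interval 7.37% to 13.1%), fewer than its 18.8% of the rest, and the water control titled unstained in the SYBR Gold test called 167 (40.2%, 35.6% to 45.0%), more than its 23.3% of the rest. Of these 167, 96 lay in the chromosome 7 cluster and 45 in the middle chromosome 2 cluster. Of the 41 calls of the other control, 30 lay in the chromosome 7 cluster. At least 1 water control called 186 of the 415 cluster windows (44.8%), beside 38.3% of all windows and 37.6% of the rest of the 3 chromosomes (39.4% and 38.98% without windows of unknown bases alone). A single library decided this: without the SYBR Gold control the clusters stood at 43 windows (10.4%) and the rest at 19.9%, so the order turned.

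Whether windows of a cluster were found together was measured by D′, the normalized linkage disequilibrium of the calls of 2 windows over the 186 libraries, which is 1 for windows as linked as their call rates allow, 0 for independent windows and -1 for windows that share no library. Windows called in at least 2 libraries entered. Windows called in few libraries often share none, which pulls D′ down. Linkage fell with distance both inside the clusters and in the rest. Mean D′ inside the clusters was 0.392 ± 0.0451 (SE) for neighbours at 40 kb, 0.271 ± 0.0639 at 200 kb, 0.197 ± 0.0617 at 400 kb, 0.110 ± 0.0745 at 1000 kb and 0.00575 ± 0.100 at 2000 kb. In the rest of the same chromosomes it was 0.451, 0.329, 0.267, 0.156 and 0.0452.

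The clusters were below the rest at each of these 5 distances, and no difference exceeded 2 SE. At 1000 and 2000 kb the sign turned over windows called in at least 5 libraries (0.0144 and 0.0139) and over those called in 5 to 12 (0.0517 and 0.0652). The lowest was -0.0707 ± 0.0585 at 400 kb, and at 40 kb it was -0.0585 ± 0.0409. The single clusters gave 23 differences, 16 below and 7 above 0. One of the 23 exceeded 2 SE: the proximal chromosome 2 cluster had a D′ of 0.397 at 400 kb, where the rest of chromosome 2 had 0.256 (difference 0.141 ± 0.0562, 20 window pairs). At the same distance the middle chromosome 2 cluster had 0.145, the chromosome 7 cluster 0.176, the chromosome 9 cluster 0.238 and the distal chromosome 2 cluster 0.326, each within 2 SE of its chromosome. Within single groups of at least 15 libraries, 8 differences could be computed and none exceeded 2 SE.

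Linkage did not drop at the cluster edges beyond error. Pairs with 1 window inside and 1 outside had a mean D′ of 0.297 at 200 kb (48 pairs) and 0.258 at 400 kb (97 pairs), and pairs inside had 0.271 and 0.197. The differences were 0.0266 ± 0.0818 and 0.0612 ± 0.0823. Of the 10 differences for single clusters, 4 were below and 6 above 0, none by more than 2 SE. The lowest was -0.251 ± 0.176 for the distal chromosome 2 cluster at 200 kb, over 10 pairs.

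Linkage between clusters was compared for all 10 pairs with other window pairs of the same chromosomes, at the same distances where both lay on chromosome 2. No pair of clusters was more linked than such windows beyond 2 SE. The highest difference was 0.167 ± 0.146 between the proximal and distal chromosome 2 clusters, 73.7 to 76.0 Mb apart, and the next was 0.147 ± 0.114 between the proximal cluster and chromosome 9. The lowest difference was -0.203 ± 0.136 between the middle and distal chromosome 2 clusters. Next lowest was -0.184 ± 0.0935 between the chromosome 7 and chromosome 9 clusters, whose range of 2 SE, from -0.371 to 0.00285, ended just above 0. For the middle chromosome 2 cluster with chromosome 7 the difference was -0.167 ± 0.107 and with chromosome 9 -0.111 ± 0.151. With SE of 0.0935 to 0.183, differences under about 2 of these errors were not detectable here.

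**Figure D5:**
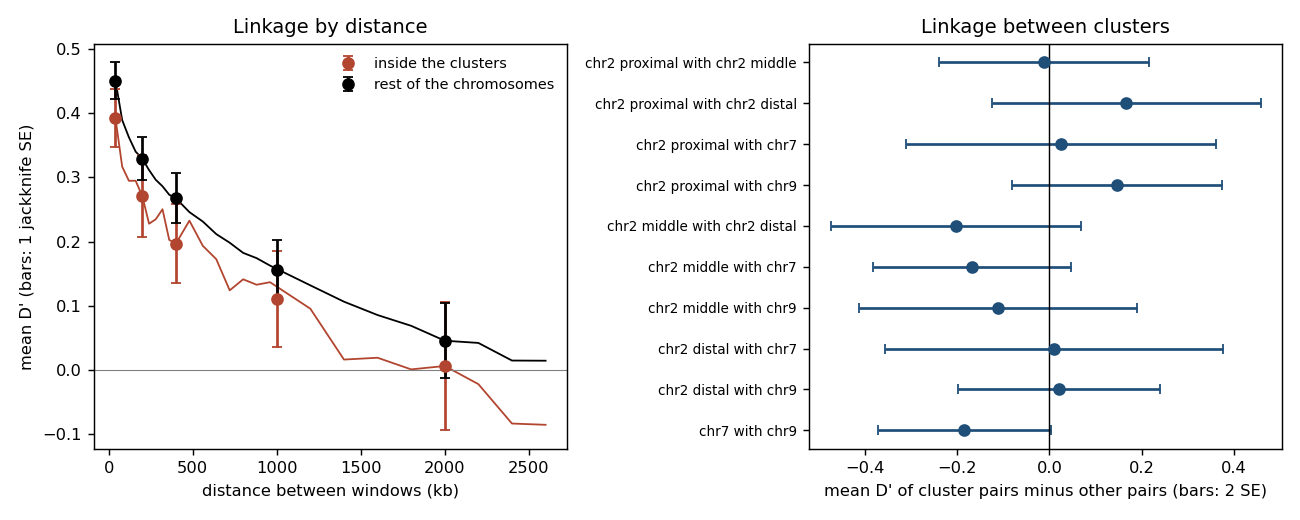
Left, mean D′ of window pairs inside the clusters (red) and in the rest of chromosomes 2, 7 and 9 (black) against the distance between windows in kb, with points and bars of 1 jackknife SE at 5 distances and lines at all distances measured. Right, mean D′ of all window pairs between 2 clusters minus that of other pairs of the same chromosomes, with bars of 2 SE. The red line lies below the black one at all distances drawn, by less than 2 SE of the difference at the 5 with points, and all 10 bars on the right cross 0.

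The same question was asked of whole clusters by correlating, over the 186 libraries, the excess of each cluster's call rate over the rest of its chromosome. Pearson's r ran from -0.127 (middle with distal chromosome 2, permutation p = 0.0848) to 0.0810 (proximal chromosome 2 with chromosome 9, p = 0.259), and none of the 10 passed (lowest adjusted p = 0.556). Spearman's rho passed for 2 pairs, the proximal with the middle chromosome 2 cluster (0.273, adjusted p = 0.0016) and the proximal cluster with chromosome 9 (0.256, adjusted p = 0.0023). The r of these pairs was 0.0542 (adjusted p = 0.650) and 0.0810. It was 0.123 and 0.127 without the 2 libraries whose proximal cluster excess lay farthest from its median. Libraries differed in yield, and the first pair subtracts the same rest of chromosome 2. The part of yield and of the shared reference in these ranks was not tested. Within the 6 experiments of at least 15 libraries, rho ran from -0.201 to 0.538 for the first pair and from -0.0384 to 0.486 for the second. Over the 113 libraries with at least 1% of windows called, rho was 0.288 and 0.236.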

How the data were processed

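The deposited table holds, for each 40 kb window of mm9 and each library, a call of 1 or 0 that the authors made from reads (aligned with Bowtie2 2.1 per the submitters' processing notes, which also name Samtools and GAMtools) where a window passed a threshold of at least 4 reads. The calls are scores of presence with no unit and no read depth. The table holds 0 columns of other samples and no comparison made by the authors.

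Libraries were grouped by title. Of 68162 rows, 65983 on chromosomes 1 to 19 and X were used. The windows, gene lists and tests were chosen with earlier results of these data known. Genes were taken from GENCODE on mm9, whose chromosome ends match the 20 chromosomes of the table. Named windows were the 2 most and the 2 least called of each cluster, those of Olfr17, Olfr151 and Olfr160, the beta-globin and Trim lists and the first and last receptor gene. Any other is said to have been chosen after its values were seen.

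Call rates were compared by two-sided sign-flip permutation over libraries (100000 resamples, or all sign flips under 10 libraries), with a jackknife SE of the ratio, shares of calls by exact permutation or 100000 resamples, and D′ by a jackknife SE, where a difference over 2 SE was taken as beyond error. Benjamini-Hochberg adjustment ran over each family, at 0.05. Alternatives changed the windows, the reference, the libraries and the measure, and some were added after the data were seen: the uniqueness limit of 80%, leaving out windows of unknown bases alone, the experiments singly, the settings of the flanks, receptor parts and edges, the range of 5 to 12 libraries, correlations within experiments and the water controls left out singly. Python 3.11.15, numpy 2.4.6, pandas 2.3.3, scipy 1.17.1, numba 0.67.0 and matplotlib 3.10.9 were used. The call rate ratio with its SE and sign-flip test, mean D′ and the permutation test of shares were tried on simulated data. The SE of D′, its differences at edges and between clusters, and the correlations were not.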

Additional observations from a re-analysis of the deposited data

Results flagged for a closer look

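Within groups of 4 to 10 libraries, 3 of 8 groups held a library far from the others in the percent of cluster windows called, where chance marks about 1 group in 20 if values are normally distributed, which percents bounded at 0 are not. In eosin in water, replicate 7 called 21.2% of the cluster windows (Wilson 95% interval 17.5% to 25.4%) and the next library 10.8%. At 1 µl of proteinase K, replicate 7 of the group titled csc called 25.3% (21.4% to 29.7%) and the next 11.6%. Among the water controls of the full collection, replicate 4 called 9.88% and the next 0.241%.

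The share of calls that lay in the clusters differed between caps titled stained and unstained with SYBR Gold by -5.28 percentage points, from 176 of 4914 and 7 of 79 calls. The water control titled unstained in that test, which enters none of the comparisons between conditions, called 167 of the 415 cluster windows, above the 2 calls found in 9 other water controls together.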

How the results depend on the processing

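Of 495 values recomputed for 38 results, 446 kept their direction and their side of the threshold, which for linkage was 2 SE. How far their sizes changed was not part of this count. No paired analysis was possible because the titles carry well names and no shared replicate numbers, so replicate numbers only name libraries. The ratio of the distal chromosome 2 cluster to the rest, 0.989, was 1.03 against all of chromosomes 1 to 19, 1.03 against windows in the GC range of the clusters, 1.003 in libraries with at least 1% coverage, and 1.02, 1.01, 1.01, 1.04 and 1.01 without the crystal violet, early freezing, eosin, full collection and propidium iodide experiments. As a mean of single-library ratios, the middle chromosome 2 cluster stood at 1.12 and chromosome 9 at 1.02. Against the flanks, the proximal cluster was at 1.03 without the 10% of libraries with the most calls, 1.03 with flanks of 12 windows, 1.03 without crystal violet and 1.002 without propidium iodide. The distal cluster was at 0.958 without those libraries and 0.923 without proteinase K, chromosome 7 passed the test at 0.673 without them, and the middle cluster lost its call at 0.761 without propidium iodide. Windows with a receptor gene stood at 0.866 with at least 80% unique stretches and at 0.986 over windows called at least once. Edge pairs at 200 kb were at -0.00613 with a minimum of 5 libraries and -0.0597 with 80% unique stretches. Inside the clusters the difference was 0.0144 at 1000 kb and 0.0139 at 2000 kb with that minimum, 0.0517 and 0.0652 over windows of 5 to 12 libraries, and 0.0014 at 2000 kb as libraries with both over libraries with either. That measure gave -0.00271 for the proximal cluster with chromosome 7, and 80% unique stretches gave -0.0171 for the distal cluster with chromosome 7. The SYBR Gold share turned to 0.214 over chromosomes 1 to 19 and X and was -6.07 as a mean of shares (adjusted p = 0.233). Leaving out 1 library at a time, it ran from -11.6 to -0.674 and lost the call in 16 of 18 cases. The shares for 3 against 4, 3 against 8 and 4 against 8 µl of proteinase K ran from -0.187 to 1.26, 0.591 to 2.01 and 0.0267 to 1.50, for the full collection from 0.586 to 1.83, for eosin from -1.79 to -0.727, for propidium iodide from -1.68 to -1.01 and for crystal violet from -1.25 to 0.264. The cause of these shifts was not tested. Calls carry no read depth. For each cluster, the 10 libraries with the most calls in it gave from 41.8% to 54.01% of its calls. Both limit every cluster value.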
